A study of Homo sapiens with 18 samples.

Results

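SERINC2, TINAGL1, PEF1 and COL16A1 are 4 genes that follow each other on chromosome 1, and they were 4 of the 16472 genes in the deposited expression table. They were chosen by their measured levels, because each was lower in a line of SP100 knockout keratinocytes (KO) than in the wild-type line (WT) at 0, 12 and 48 h of interferon, so every KO against WT value of these genes is given as a description and not as a test. All 4 passed the filter on low values, an RPKM (read density, corrected for gene length and library size) of at least 1 in at least 3 libraries, which 13280 genes passed.

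The cells were NIKS, an established line of immortalized human keratinocytes that depends on a feeder layer, here lethally irradiated J2/3T3 mouse fibroblasts. Both lines were cultured alike and differed by the labels only in SP100: the WT columns are named Vec2 and the KO columns KO5, so each genotype is 1 line, and the genotype cannot be told apart from other differences between the lines. Each line was sequenced untreated (0 h) or after 12 or 48 h with 25 ng/mL of human interferon alpha 2a, with 3 biological replicates in each of the 6 groups. All untreated libraries are from 0 h, so the length of treatment and the length of culture cannot be told apart either.

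The products of these genes work in different places. SERINC2 belongs to the serine incorporators, membrane proteins with many transmembrane passes that were named for a proposed role in putting serine into membrane lipids. TINAGL1 is a secreted matrix protein related to cathepsins but without their protease activity, and it binds integrins and the epidermal growth factor receptor. PEF1 is a small calcium-binding protein with a penta-EF-hand fold. It pairs with PDCD6 (ALG-2) and acts as an adaptor for the ubiquitin ligase CUL3-KLHL12, which modifies SEC31A, a subunit of the COPII coat of vesicles leaving the endoplasmic reticulum. COL16A1 encodes collagen XVI, a collagen of the fibril-associated (FACIT) class that keratinocytes and fibroblasts make and that lies near the dermal-epidermal junction of skin.

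In the reference gene order (GENCODE 29), SERINC2 and TINAGL1 are read from the plus strand and PEF1 and COL16A1 from the minus strand. TINAGL1 and PEF1 lie next to each other and are read toward each other, so their starts do not adjoin. The stretches before the transcription starts of 3 members are shown because the members differ in their response to interferon described below. They come from RefSeq on build GRCh38.p14, run 5′ to 3′ on the gene's own strand, and end before the first annotated exon. Capitals mark GGGCGG, the core of the SP1 motif, on either strand. SERINC2 is shown from chr1:31413693-31413812 on the plus strand, directly before 1 of its 4 RefSeq starts. TINAGL1 is shown from chr1:31576365-31576484 on the plus strand and PEF1 from chr1:31644888-31645007 on the minus strand.
SERINC2: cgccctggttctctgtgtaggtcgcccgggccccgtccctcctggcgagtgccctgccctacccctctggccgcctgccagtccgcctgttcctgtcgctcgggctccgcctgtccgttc
TINAGL1: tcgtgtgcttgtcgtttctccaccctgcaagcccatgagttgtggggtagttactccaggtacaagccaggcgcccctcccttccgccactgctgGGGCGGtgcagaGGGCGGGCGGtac
PEF1: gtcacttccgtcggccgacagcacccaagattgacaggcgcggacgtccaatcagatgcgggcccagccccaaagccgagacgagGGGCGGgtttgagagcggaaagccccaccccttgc

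In the whole 250 bases before the start, GGGCGG was found 4 times for TINAGL1, 3 times for PEF1, 2 times for COL16A1 and 1 time for SERINC2. It was found in 42.6% of the 35116 promoters of the same length, and 2 of the TINAGL1 matches overlap each other. These counts depend on the start used: GGGCGG was found 0 times before the other RefSeq start of TINAGL1 and of PEF1, and 2 times before another SERINC2 start. The interferon-gamma activated site, searched on both strands as TTCNNNGAA, was not found in these windows, and 6.57% of all promoters held it. The core of the interferon-stimulated response element, GAAA repeated after any 2 bases, was likewise not found, and 3.02% of all promoters held it. The 250 bases held 22 CpG for SERINC2, 14 for TINAGL1, 18 for PEF1 and 16 for COL16A1, against a median of 11 over all promoters. Where starts of a gene had equal support from GENCODE coding transcripts, the start with more CpG was used, so these counts can lean high. For COL16A1, 0 of 2 GENCODE coding transcripts begin at the RefSeq start used, and its window lies wholly within an annotated first exon. Its sequence is therefore not shown, and its motif and CpG counts may not describe a promoter.

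The targeted gene was lower in the KO line but still read. SP100, a scaffold protein of PML nuclear bodies, was at 50.5% ± 2.93 of the WT mean at 0 h, 55.9% ± 2.26 at 12 h and 46.9% ± 1.97 at 48 h (SD, n = 3), with no overlap of the lines at any time. Total reads per library were not available. The depth of each library relative to the mean, taken from the size of 1 read in 1424 low genes, ran from 0.84 to 1.27. The libraries held keratinocyte markers: all 8 were tested, and they summed to between 13460 and 16590 RPKM.

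The 4 genes kept 1 order of level in 18 of 18 libraries, with SERINC2 highest, then TINAGL1, PEF1 and COL16A1. In none of the 6 groups did the libraries of genes next to each other in that order overlap. By mean RPKM over all libraries they stood at percentiles 93.7, 89.5, 86.2 and 76.3 of the genes tested.

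SERINC2 (ENSG00000168528) was at 154.8, 160.5 and 153.0 RPKM in the 3 untreated WT libraries, and at 125.4, 118.0 and 146.7 RPKM in the untreated KO libraries. The 12 h replicates read 119.1, 114.0 and 120.5 RPKM for WT but 91.0, 97.8 and 100.8 RPKM for KO. At 48 h they held 129.6, 120.2 and 121.8 RPKM in WT against 86.1, 92.9 and 80.4 RPKM in KO. The lines did not overlap at any time, but the untreated KO replicate 3 lay close under the lowest untreated WT library. The KO mean was 83.3% ± 9.56 of the WT mean at 0 h, 81.9% ± 4.24 at 12 h and 69.8% ± 5.02 at 48 h (SD, n = 3), so the drop was deepest at 48 h.

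TINAGL1 (ENSG00000142910) was at 102.9, 107.5 and 101.4 RPKM in untreated WT and at 64.3, 68.4 and 83.9 RPKM in untreated KO. The 12 h replicates read 85.9, 79.5 and 89.1 RPKM for WT but 50.5, 48.4 and 51.3 RPKM for KO. At 48 h the values were 88.9, 81.3 and 86.4 RPKM in WT and 57.6, 63.4 and 58.5 RPKM in KO. Untreated KO replicate 3 was again the highest of its group, and the lines stayed apart at each time. The KO mean was 69.5% ± 9.93 of WT at 0 h, 59.0% ± 1.75 at 12 h and 69.96% ± 3.61 at 48 h.

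PEF1 (ENSG00000162517) had the steadiest levels of the 4. WT libraries held 71.3, 70.9 and 68.2 RPKM at 0 h, 68.4, 71.0 and 71.1 RPKM at 12 h, and 71.8, 66.5 and 71.4 RPKM at 48 h. KO libraries held 50.3, 44.6 and 43.4 RPKM at 0 h, 42.8, 44.3 and 45.9 RPKM at 12 h, and 47.4, 45.7 and 39.1 RPKM at 48 h. The KO libraries lay below the WT libraries at all 3 times, as in 2.3% of all genes tested, and PEF1 was chosen for its lower KO level. The KO mean was 65.7% ± 5.22, 63.2% ± 2.26 and 63.0% ± 6.26 of WT at 0, 12 and 48 h, and the difference in level was 24.1, 25.8 and 25.9 RPKM.

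COL16A1 (ENSG00000084636) had the deepest drop of the members at 0 h. It was at 55.8, 53.2 and 51.9 RPKM in untreated WT and at 25.7, 23.8 and 27.9 RPKM in untreated KO. The 12 h replicates read 34.7, 29.2 and 38.4 RPKM for WT but 18.1, 21.4 and 18.6 RPKM for KO. At 48 h they held 38.2, 42.3 and 43.5 RPKM in WT and 25.2, 29.2 and 23.2 RPKM in KO. The KO mean was 48.1% ± 3.81, 56.9% ± 5.15 and 62.6% ± 7.45 of WT at 0, 12 and 48 h, and the difference in level went from 27.9 to 14.7 and 15.4 RPKM.

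**Figure D1:**
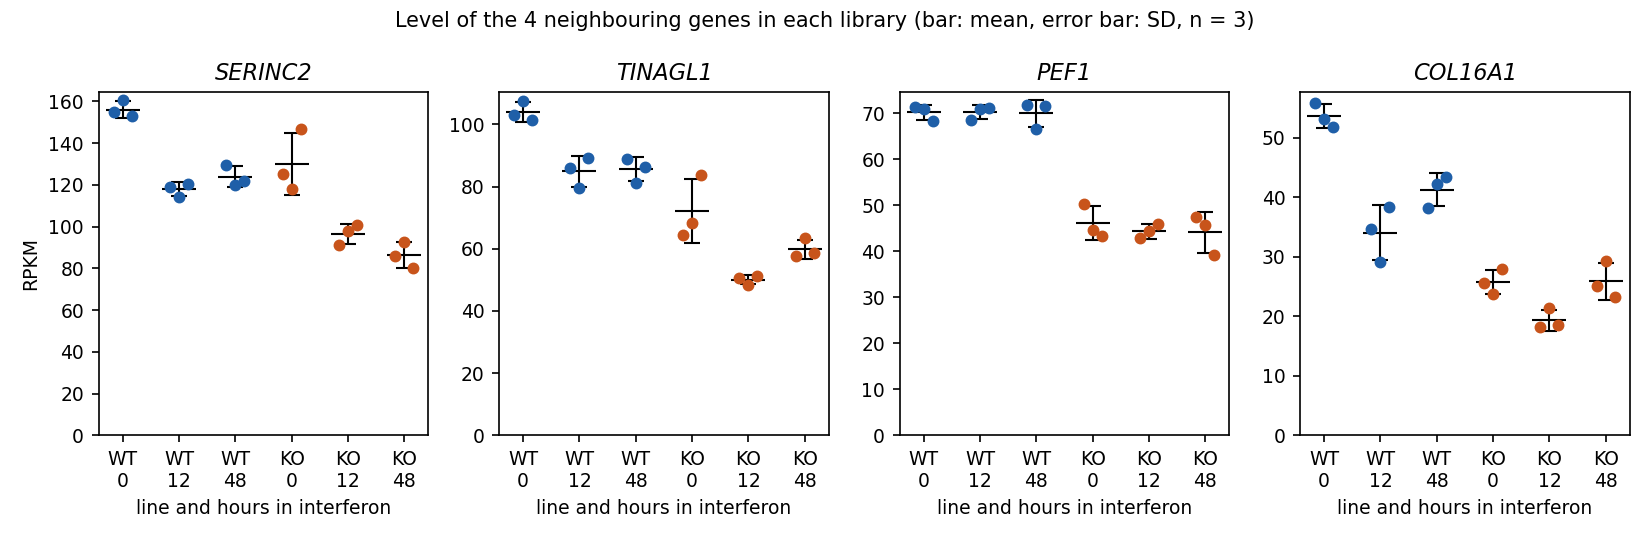
Level of each of the 4 genes in RPKM (vertical axes, each from 0) by line and hours in interferon (horizontal axes), with points for libraries, bars for means and error bars for SD (n = 3). PEF1 is flat over time in both lines near 70 and 44 to 46 RPKM, while the other 3 genes are highest in the untreated WT libraries.

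On the log2(RPKM + 1) scale, on which all differences below are given, the KO minus WT difference of SERINC2 was -0.27, -0.29 and -0.52 at 0, 12 and 48 h (SE 0.068 each). For TINAGL1 it was -0.53, -0.75 and -0.51 (SE 0.075), for PEF1 -0.60, -0.65 and -0.66 (SE 0.065), and for COL16A1 -1.03, -0.78 and -0.66 (SE 0.098). At 0 h the difference was smallest for SERINC2 and largest for COL16A1, at the 2 ends of the run. TINAGL1 and PEF1 differed by about their SE, and without untreated KO replicate 3 they were at -0.64 and -0.56. At 48 h the 4 differences lay between -0.51 and -0.66. This pattern is part of what chose the genes. For reference, the KO libraries lay wholly below the WT libraries in 8.85% of all genes tested at 0 h, 9.77% at 12 h and 9.29% at 48 h, and in 2.3% at all 3 times. The members are 4 of the 117 genes, 0.881% of those tested, with an adjusted p under 0.05 and a lower KO level at all 3 times. Because the genes were chosen on this contrast, these calls describe them and do not test them. The SERINC2 call depended on the processing: its limma adjusted p at 0 h was above 0.05 in 8 of 13 alternatives (0.0526 to 0.159). At 12 h it was so without WT replicate 1 or 3 or KO replicate 1 or 2 (0.0935, 0.102, 0.125 and 0.0594).

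**Figure D2:**
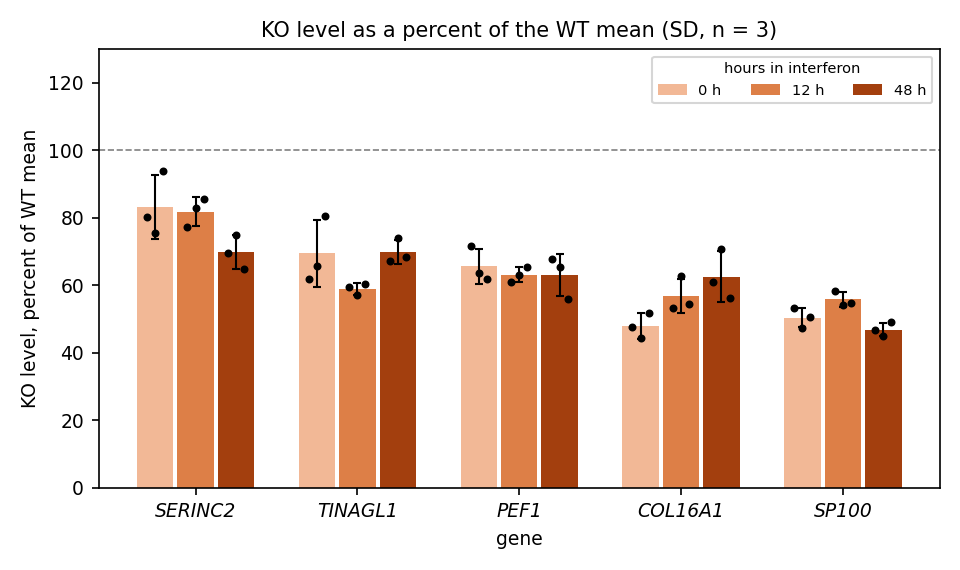
KO level as a percent of the WT mean of the same time (vertical axis, from 0) for the 4 genes and SP100, with bars for means at 0, 12 and 48 h, points for KO libraries and error bars for SD (n = 3). Bars of SERINC2 end highest, at 83.3% and 81.9% at 0 and 12 h, and the COL16A1 bar at 0 h is the lowest of the 4 genes, at 48.1%.

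Whether the gap between the lines changed with interferon does not follow from the choice of the genes alone, but the gap at each time was used, so its changes are given as sizes. SERINC2 had a gap wider by 0.25 at 48 h than at 0 h (change -0.25, SE 0.096, 95% interval -0.45 to -0.04, limma adjusted p = 0.76). COL16A1 had a gap narrower by 0.37 at 48 h than at 0 h (SE 0.14, interval 0.08 to 0.67, adjusted p = 0.76) and by 0.25 at 12 h (interval -0.04 to 0.55). The TINAGL1 gap changed by -0.22 at 12 h (SE 0.11, interval -0.45 to 0.01) and by 0.02 at 48 h (interval -0.21 to 0.25), both against 0 h. PEF1 changed by -0.05 at 12 h and -0.06 at 48 h against 0 h, with intervals from -0.25 to 0.14 and -0.25 to 0.13. Between 12 and 48 h the gap changed by -0.23 for SERINC2 (interval -0.43 to -0.02) and by 0.24 for TINAGL1 (interval 0.01 to 0.47). The fit over all genes called 0 of the 4 members in any of these contrasts, against 0.0753% of all genes at 12 h, 0.0828% at 48 h and 0% from 12 to 48 h. At an unadjusted limma p under 0.05 there were 0, 2 and 2 members, and 5.75%, 6.22% and 6.81% of all genes. On simulated data, changes of 0.5 in the gap at 12 h were called in 38% of cases and changes of 1 in 82%, so smaller changes of the gap could go uncalled.

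Both lines responded to interferon, and all 20 genes of a list of classical interferon-stimulated genes rose in each line at 12 and at 48 h (limma, adjusted p under 0.05). Over that time SERINC2, TINAGL1 and COL16A1 fell in both lines at 12 h, while PEF1 passed the threshold in neither. In WT, 3 of the 4 members fell at 12 h and 3 at 48 h, against 29.8% and 6.3% of all genes tested. In KO, 3 fell at 12 h and 2 at 48 h, against 32.8% and 7.42%. The 12 h and 48 h comparisons of a line share its untreated libraries.

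SERINC2 fell by 0.40 in WT (SE 0.068, limma adjusted p = 1.89e-04) and by 0.42 in KO (adjusted p = 1.05e-04) at 12 h. At 48 h it was lower than at 0 h by 0.33 in WT (log2 change -0.33, adjusted p = 3.77e-03) and by 0.58 in KO (log2 change -0.58, adjusted p = 1.81e-05). That is 75.5% ± 2.20 and 79.4% ± 3.24 of the untreated WT mean, and 74.2% ± 3.85 and 66.5% ± 4.79 of the untreated KO mean (SD, n = 3). All treated libraries lay below all untreated libraries of their line. Such a separation was found in 35.2% and 16.8% of all genes in WT at 12 and 48 h, and in 36.8% and 16.4% in KO. From 12 to 48 h the change was 0.07 in WT (adjusted p = 0.449) and -0.16 in KO (adjusted p = 0.0754). With median-of-ratios scaling of the libraries the KO value was -0.25 (adjusted p = 0.00989), and the WT value turned to -0.02. Without KO replicate 2 at 48 h the KO value was -0.21 (adjusted p = 0.0344).

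TINAGL1 fell by 0.29 in WT (SE 0.075, limma adjusted p = 5.08e-03) and by 0.51 in KO (adjusted p = 4.16e-05) at 12 h, to 81.7% ± 4.71 and 69.4% ± 2.05 of the untreated means. At 48 h the log2 change was -0.28 in WT (adjusted p = 0.0214) and -0.26 in KO (adjusted p = 0.0315). The treated and untreated libraries of a line did not overlap. From 12 to 48 h it rose by 0.25 in KO (adjusted p = 0.0136), and its change in WT was 0.01 (adjusted p = 0.92). Scaling the libraries took the WT change at 12 h to -0.20 (adjusted p = 0.0503) and the KO rise to 0.16 (adjusted p = 0.107). Untreated KO replicate 3 weighed on the KO value at 48 h, which was -0.15 without it (adjusted p = 0.112). That call was also lost without KO replicate 1 or 3 at 48 h (adjusted p of 0.101 and 0.0889) and when only the libraries compared were fitted (adjusted p = 0.175). The WT call at 48 h was lost without untreated WT replicate 1 or 2, or WT replicate 2 at 48 h (adjusted p of 0.053, 0.081 and 0.0886). The KO rise from 12 to 48 h was lost without KO replicate 2 at 48 h (adjusted p = 0.0609).

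COL16A1 fell by 0.65 in WT (SE 0.098, limma adjusted p = 6.95e-05) and by 0.39 in KO (adjusted p = 3.49e-03) at 12 h, to 63.5% ± 8.64 and 75.2% ± 6.81 of the untreated means. At 48 h it was at 77.0% ± 5.18 of untreated in WT (log2 change -0.37, adjusted p = 0.0196), again with no overlap. In KO it was back at 100.4% ± 12.0 (log2 change 0.00, 95% interval -0.21 to 0.21, adjusted p = 0.996), with overlapping libraries. From 12 to 48 h it rose by 0.28 in WT (adjusted p = 0.0377) and by 0.40 in KO (adjusted p = 4.27e-03). Genes called higher in this contrast were 24.6% of those tested in WT, where 1 member was called, and 27.7% in KO, where 2 were. The WT rise lost its call with scaling (0.19, adjusted p = 0.139) and without WT replicate 2 at 12 h (0.17, adjusted p = 0.186). It was also lost without WT replicate 1 at 12 h or WT replicate 2 or 3 at 48 h (adjusted p of 0.062, 0.1 and 0.125). The WT fall at 48 h against 0 h lost its call without untreated WT replicate 1 or 2, or WT replicate 1 at 48 h (adjusted p of 0.0714, 0.0507 and 0.0842).

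PEF1 passed the threshold in none of the 6 contrasts over time. Its changes in WT were within 0.01 of 0, with 95% intervals from -0.14 to 0.14 at 12 h and -0.14 to 0.13 at 48 h. In KO they were -0.05 at 12 h (interval -0.19 to 0.08) and -0.06 at 48 h (interval -0.20 to 0.07). Treated and untreated libraries overlapped in both lines, at 100.0% ± 2.15 and 99.7% ± 4.22 of the untreated mean in WT and 96.2% ± 3.44 and 95.7% ± 9.51 in KO. With median-of-ratios scaling the PEF1 change at 12 h in WT was 0.09 (limma adjusted p = 0.261). From 12 to 48 h the scaled change was -0.09 in WT and -0.10 in KO (limma adjusted p of 0.303 and 0.23). A WT change within 0.01 of 0 at 12 h thus does not hold with scaling.

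The background moved with interferon too. The median log2 change of all genes at 12 h was -0.09 in both lines, against -0.35 and -0.41 for the 4 members. With scaling, the WT line had 2892 genes called higher and 2717 lower at 12 h, where the unscaled values gave 2005 and 3959. For KO it gave 3153 and 3040, where the unscaled values gave 2123 and 4362. From 12 to 48 h the same step turned 3267 higher and 1505 lower into 2137 and 2415 for WT, and 3678 and 1860 into 2532 and 2803 for KO.

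**Figure D3:**
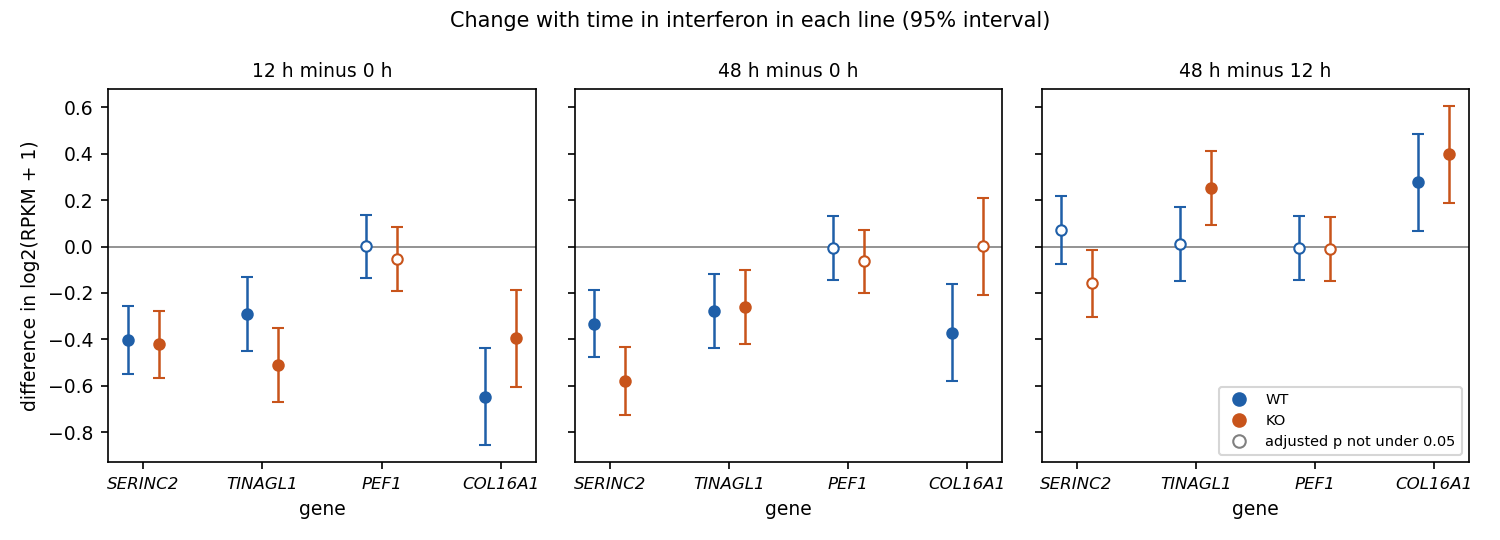
Change of each gene between times in log2(RPKM + 1) (vertical axis) for WT and KO, with points for the fitted differences and bars for 95% intervals. Filled points have an adjusted p under 0.05 and open points do not. All 6 points of PEF1 are open and lie near 0, and COL16A1 in KO at 48 h lies at 0.00 against 0 h.

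The genes around the run had differences nearer to 0 on the whole. The 10 nearest tested genes on each side were compared between the lines, and 2 of the 20 were called lower at 0 h, 1 at 12 h and 1 at 48 h, with 0 called higher by limma. At an unadjusted p under 0.05, 0, 4 and 0 of them were higher and 4, 2 and 2 lower at these times. Among all genes, 2.07%, 2.02% and 2.16% were called lower at these times. With scaling, 276 genes were called higher and 313 lower at 0 h, against 375 and 275 without. The 20 neighbours had a median KO minus WT difference of -0.003, -0.03 and -0.02 at 0, 12 and 48 h. For the nearest 2 on each side the median was -0.16, -0.10 and -0.07, with ADGRB2 and SPOCD1 among them at 1.45 and 0.73 RPKM in untreated WT. That of the 4 members was -0.56, -0.70 and -0.59. The members were chosen for a lower KO level and the neighbours were not, so this contrast follows in part from the choice.

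ZCCHC17, which encodes a zinc knuckle protein and is the nearest tested gene before SERINC2, averaged 40.6 RPKM before treatment in WT and 36.9 RPKM in KO. Its differences were -0.13, -0.13 and 0.01 at 0, 12 and 48 h (SE 0.11), with limma adjusted p of 0.582, 0.593 and 0.977. ADGRB2, an adhesion G protein-coupled receptor gene and the nearest tested gene after COL16A1, was low, at 1.45 RPKM before treatment in WT and 0.71 RPKM in KO. Its differences were -0.53, -0.17 and -0.18 (SE 0.18), with adjusted p of 0.127, 0.701 and 0.71. Differences of so low a gene are understated on this scale.

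The neighbours called lower were SDC3 and LAPTM5 at 0 h, LAPTM5 at 12 h and PTPRU at 48 h. SDC3 (syndecan 3, a cell surface proteoglycan) differed by -0.26 at 0 h (adjusted p = 0.0317), and PTPRU (a receptor tyrosine phosphatase) by -0.27 at 48 h (adjusted p = 0.0477). LAPTM5, a lysosomal membrane protein gene, differed by -0.33 at 0 h (adjusted p = 0.037) and -0.47 at 12 h (adjusted p = 3.84e-03). At 48 h the LAPTM5 value was -0.04 (adjusted p = 0.87). SNRNP40, which encodes a spliceosome component and lies next to ZCCHC17, was not called at any time. When only the libraries of a comparison were fitted, 0 of the 20 neighbours were called at any of the 3 times.

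**Figure D4:**
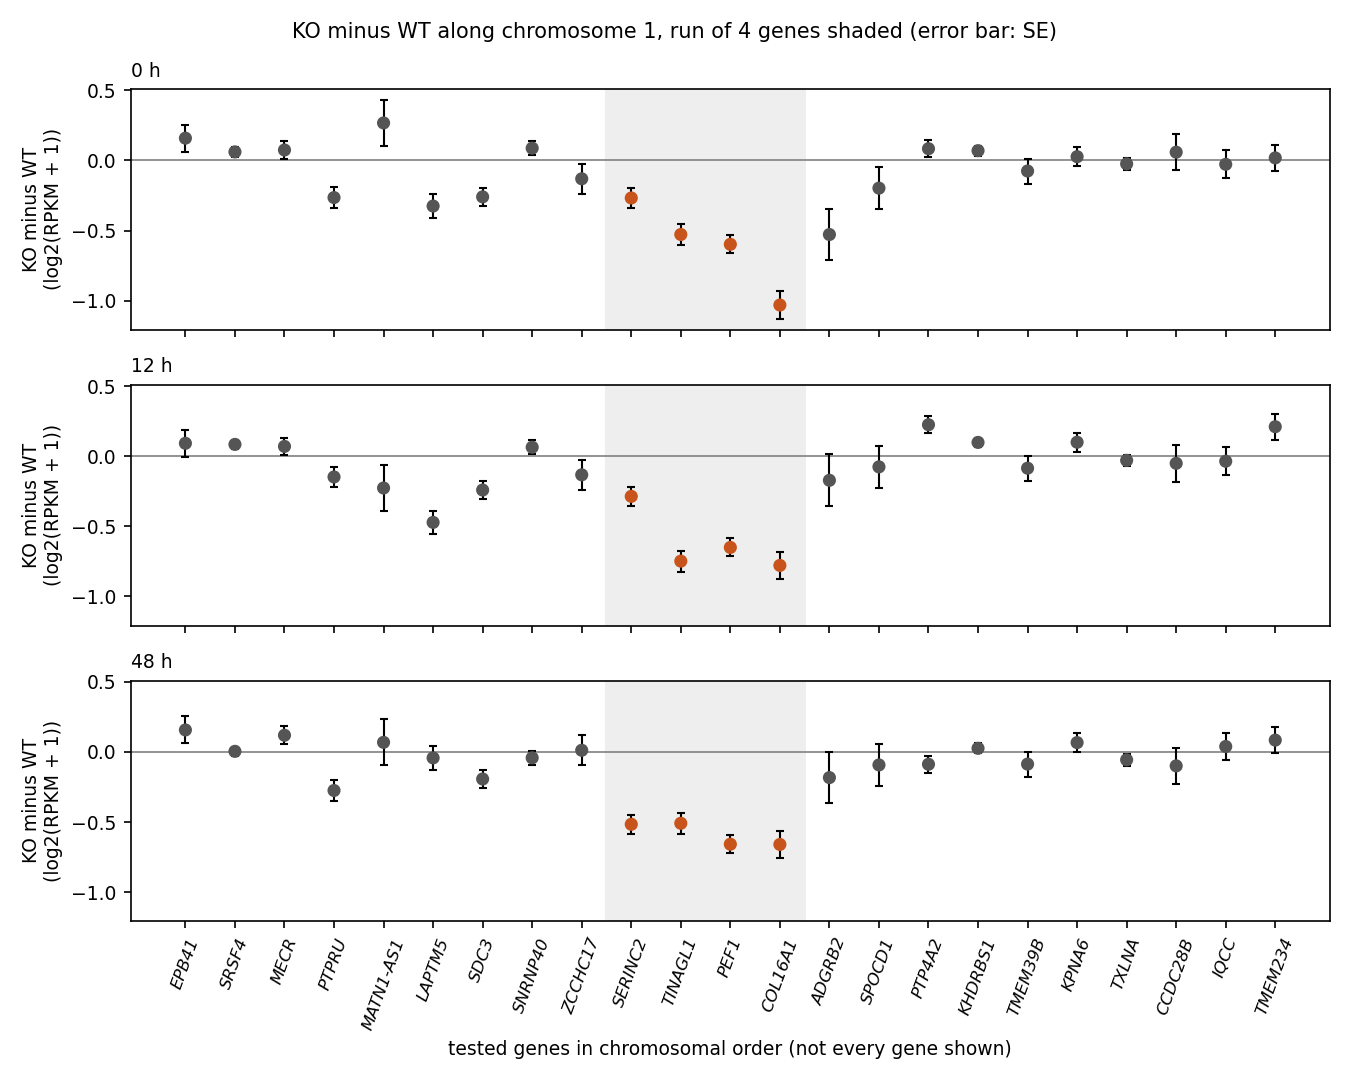
KO minus WT difference in log2(RPKM + 1) (vertical axes) at 0, 12 and 48 h for the 4 genes (orange, shaded) and tested genes near them on each side in chromosomal order (horizontal axis, not to distance, not every gene shown), with SE bars. The shaded points lie between -0.27 and -1.03, and the median of the 20 nearest tested genes is between -0.03 and -0.003.

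All windows of 4 consecutive tested genes were then counted in the same gene order, as a description of where the run stands. Of 12782 windows, 1 had all 4 genes called lower in KO at all 3 times, and it was this run. The run was chosen for that pattern, so its place in this count follows from the choice and is no support for it. That count rests on the SERINC2 calls at 0 and 12 h, which some alternatives end as given above. There were 0 windows with all 4 called higher, and 4 windows with at least 3 of 4 called lower, of which 3 hold at least 3 of these same members. By mean difference over its 4 genes and 3 times, which was -0.60, the run ranked 10th from the lowest. GENCODE 29 places 9 other genes between the members, of which 2 were in the table. AC114488.1 and AC114488.2, both antisense genes, averaged 0.33 and 0.23 RPKM and were below the filter. HCRTR1, the orexin receptor gene that overlaps PEF1 on the opposite strand, was not analysed here. AC114488.2 overlaps PEF1 and COL16A1 on the opposite strand, and since it is not stated whether counting used the strand, reads of such partners cannot be told apart from those of the members.

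Relatives and partners of each member were compared between the lines from lists drawn up with earlier results of these data known. Of all genes tested, 4.89%, 3.62% and 4.19% were called in either direction between the lines at 0, 12 and 48 h, and 18.1%, 17% and 16.4% had an unadjusted p under 0.05. The list counts that follow are to be read against these shares, which lists this short need not reach. Of the serine incorporators SERINC1, SERINC3 and SERINC5, 0 of the 3 passed at any time by limma, also at an unadjusted p under 0.05, and their median difference was 0.06, 0.01 and 0.03 at 0, 12 and 48 h, near the 0.02, 0.01 and 0.01 of all genes. SERINC1 averaged 44.5 RPKM before treatment in WT and 46.5 RPKM in KO, so that SERINC2 had the highest level of the 4 family members in the table in both lines.

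Among 6 tested relatives and receptors of TINAGL1, EGFR was higher in KO at each time. EGFR, the epidermal growth factor receptor, averaged 45.4 RPKM before treatment in WT and 51.7 RPKM in KO, and it differed by 0.18, 0.16 and 0.22 at 0, 12 and 48 h (limma adjusted p of 0.0162, 0.0362 and 0.0047). ITGA5, the integrin alpha 5 chain of the fibronectin receptor, was higher at 0 h by 0.23 (adjusted p = 0.0425) and at 48 h by 0.30 (adjusted p = 0.0074). None of the 6 was called lower, and 2.82%, 1.6% and 2.03% of all genes were called higher at 0, 12 and 48 h.

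Of 7 other penta-EF-hand genes, 0 were called between the lines at any time by limma, and 1, 0 and 2 passed at an unadjusted p under 0.05. Of 17 genes for PEF1 partners and COPII coat subunits also 0 were called, and 3, 2 and 1 passed unadjusted. Their median differences were 0.06, 0.05 and 0.07, and 0.05, 0.05 and 0.02, at 0, 12 and 48 h. PDCD6, the partner in the PEF1 dimer, averaged 89.7 RPKM before treatment in WT and 93.5 RPKM in KO. SEC31A averaged 84.5 and 83.8 RPKM. GCA (grancalcin), another penta-EF-hand gene, averaged 0.45 RPKM before treatment in WT, then 5.29 and 6.32 RPKM in interferon. In KO it rose likewise, from 0.55 RPKM to 6.26 and 6.70 RPKM.

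Of 10 listed FACIT collagens, 4 were in the table, among them COL16A1, which was chosen for its lower KO level. COL12A1, which encodes collagen XII of the same class, went the other way and was higher in KO by 0.38, 0.35 and 0.57 at 0, 12 and 48 h (limma adjusted p of 7.96e-03, 0.0153 and 2.45e-04). COL9A2 and COL9A3 were not called, and the other 6 were not analysed here. Among 18 tested genes of the dermal-epidermal junction, COL17A1 (the hemidesmosomal collagen XVII) was lower by 0.20 at 0 h (difference -0.20, adjusted p = 6.89e-03) and by 0.17 at 48 h (difference -0.17, adjusted p = 0.0214). LAMB3, a chain of laminin 332, was lower at 0 h (difference -0.37, adjusted p = 0.006). COL7A1 averaged 121.7 RPKM before treatment in WT and 92.7 RPKM in KO, without a call. At an unadjusted p under 0.05, 0, 1 and 3 of the 18 were higher and 6, 5 and 2 lower at 0, 12 and 48 h. The median of the 18 was -0.06, -0.09 and -0.02.

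Of 18 listed fibroblast genes, 9 were in the table and 6 were tested, and their sum was 739.8 to 829.5 RPKM in untreated WT and 539.9 to 569.4 RPKM in untreated KO. Over 12 and 48 h it was 631.3 to 710.3 RPKM in WT and 452.9 to 530.5 RPKM in KO. VIM and FN1, which keratinocytes in culture also express, made up most of the sum. Of the 6 tested, 2 were called lower at 0 h, 2 at 12 h and 1 at 48 h, and 0 higher. At an unadjusted p under 0.05, 3, 4 and 2 were lower at these times and 0 higher. The median difference of the 6 was -0.29, -0.39 and -0.26. VIM (vimentin) differed by -0.59, -0.46 and -0.57 at 0, 12 and 48 h (limma adjusted p of 2.91e-08, 6.24e-07 and 4.95e-08). FN1 (fibronectin) differed by -0.46, -0.32 and -0.25 (adjusted p of 8.86e-04, 0.018 and 0.0686). S100A4 averaged 10.7, 7.62 and 8.87 RPKM in WT at 0, 12 and 48 h, and 7.38, 4.47 and 6.98 RPKM in KO. TWIST1 was low, at 0.83, 1.72 and 0.98 RPKM in WT and 0.72, 0.70 and 0.58 RPKM in KO. Neither was called. COL1A1, the main fibroblast collagen, averaged 1.5 to 2.6 RPKM in the groups and was not called between the lines. FAP, at 5.74 RPKM in WT and 5.98 RPKM in KO before treatment, was not called either. Below the filter, COL6A3 averaged 0.55, 0.81 and 0.45 RPKM in WT and 0.35, 0.32 and 0.30 RPKM in KO. COL6A1 and PDGFRB averaged at most 0.26 RPKM. The part of these fibroblast genes in the COL16A1 and TINAGL1 values was not tested. In bulk RNA, fewer cells of a type and less RNA per cell cannot be told apart.

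The gene whose level followed a member most closely over the 18 libraries lay on another chromosome for each of the 4, as do most of the genes tested. Pearson's r of log2(RPKM + 1) is given as a description, since the libraries share lines and times. The leading gene was GPX3, a secreted glutathione peroxidase, for SERINC2 (r = 0.94), and CYFIP2, a subunit of the WAVE actin regulator, for TINAGL1 (r = 0.95). For COL16A1 it was CDIP1 (r = 0.97), and for PEF1 it was IQCA1 (r = 0.97). IQCA1 was at 1.47, 1.47 and 1.63 RPKM in WT at 0, 12 and 48 h and at 0.03, 0.01 and 0.01 RPKM in KO, so its likeness to PEF1 is the split between the lines with no change over time. MID2 of the X chromosome, also among the 3 genes most like PEF1, was at 1.74 to 2.38 RPKM in WT and 0.01 to 0.04 RPKM in KO.

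The members were all chosen as lower in KO, so likeness among them over all libraries follows in part from that choice. Among the members themselves, TINAGL1 and COL16A1 were most alike (r = 0.93), ranking 5th and 6th in each other's order of 13279 genes. SERINC2 and TINAGL1 followed (r = 0.86), and SERINC2 and PEF1 were least alike (r = 0.66). When each group's mean was subtracted, so that only differences between replicates were left, SERINC2 and TINAGL1 had r = 0.79. By that r TINAGL1 ranked 125th for SERINC2, and SERINC2 ranked 73rd for TINAGL1, of 13279 genes. PEF1 then had r = 0.23 with SERINC2, -0.21 with TINAGL1 and 0.19 with COL16A1. By this measure the gene most like SERINC2 was SLC7A5, an amino acid transporter (r = 0.96). The gene most like TINAGL1 was ATAD3A, a mitochondrial membrane ATPase, which also lies on chromosome 1 (r = 0.93).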

How the data were processed

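RNA from 18 libraries of NIKS cells was sequenced from stranded mRNA libraries, per the labels' protocols. The authors deposited 1 table of RPKM values with 16472 genes and 2 decimals. The submitters' processing notes name cutadapt, STAR 2.6.1, RSEM 1.3.0, limma 3.50.3 and build hg19, without roles. The counting, the strand setting and the handling of mouse feeder reads are not given in the sources used here. Gene order came from GENCODE 29 by Ensembl ID, and promoter sequences from RefSeq.

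RPKM are not counts, so log2(RPKM + 1) was fitted with limma 3.58.1 under R 4.3.3 (6 group means, trended moderated variances, all libraries). P-values are two-sided, Benjamini-Hochberg adjusted over the 13280 genes tested per comparison, with a threshold of 0.05 for a call. The 12 comparisons share libraries. Relative depth was recovered with 99.3% of library pairs within 3%. On simulated data for interferon at 12 h in WT, 61% of changes of 0.5 and 90% of changes of 1 were recovered among 13280 genes, with 5.62% of calls false. For the change of the KO minus WT gap at 12 h it was 38% and 82%, with 6.25% false.

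The members and lists were chosen with earlier results of these data known. Named genes were the members, SP100, genes between and beside the members, list members and the 3 genes most like each member. Some of these are not reported here. Alternatives were a pseudocount of 0.1, median-of-ratios scaling, no filter or a mean RPKM of 5 or more, only the libraries compared, no variance trend, a replicate block, each compared library left out, and Spearman's rho.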

Additional observations from a re-analysis of the deposited data

How the results depend on the processing

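In all 12 comparisons the count of members called was the same under a pseudocount of 0.1, no filter and a mean RPKM of at least 5. From 12 to 48 h in WT, 0 of 4 members were called with median-of-ratios scaling, with only the libraries of the comparison, and with the replicate block. The replicate numbers did not pair the samples: libraries with the same number deviated together with r between -0.10 and 0.16 and a median of -0.01, and 2 of 45 pairs were over 0.1. Under that block the adjusted p of COL16A1 in this contrast was 0.0535. Fitting only the libraries of a comparison called 945 genes and 1 member for 48 h against 0 h in KO, against 1770 and 2, and called 6, 3 and 1 genes for the change of the gap at 12 h, at 48 h and from 12 to 48 h, against 10, 11 and 0. That fit gave 306, 213 and 250 genes for KO against WT at 0, 12 and 48 h, against 650, 481 and 556. Without a variance trend 1 gene was called for the change of the gap from 12 to 48 h, where the reported fit called 0 and had 904 genes at an unadjusted p under 0.05. Neighbours called were 0 of 20 at 0 h with the own libraries and with the block, 0 at 12 h with the own libraries, and 0 at 48 h with the own libraries, the pseudocount of 0.1, no filter, no trend and the block. At 48 h against 0 h in WT they were 3 with a mean RPKM of at least 5 and 2 with scaling or the own libraries, and at 0 h in KO against WT they were 3 with that filter or scaling, and at 12 h 2 with scaling. With scaling the change of PEF1 was 0.0031 at 48 h in WT and 0.053 at 12 h in KO, and from 12 to 48 h in WT that of SERINC2 was -0.016 and that of TINAGL1 -0.075. Leaving out each library of a comparison gave 1 to 3 members called at 48 h in WT, 0 to 1 from 12 to 48 h in WT, and 1 to 2 at 48 h in KO, where 1159 (without untreated KO replicate 1) to 1589 genes were called. It gave 390 to 580, 311 to 448 and 375 to 424 genes for KO against WT at 0, 12 and 48 h, and 6 to 9 and 7 to 11 genes for the change of the gap at 12 and 48 h. Neighbours called ranged from 1 to 2 at 48 h in WT, and from 0 to 1, 1 to 2 and 0 to 1 for KO against WT. PEF1 ranged in WT from -0.019 to 0.018 at 12 h, -0.024 to 0.030 at 48 h and -0.025 to 0.030 from 12 to 48 h. In KO it ranged from -0.093 to 0.010, -0.12 to 0.018 and -0.065 to 0.070. From 12 to 48 h in WT, TINAGL1 ranged from -0.034 to 0.048, and COL16A1 at 48 h in KO from -0.087 to 0.074. The change of the gap ranged from -0.085 to 0.071 for SERINC2 at 12 h and from -0.058 to 0.13 for TINAGL1 at 48 h. For PEF1 it ranged from -0.093 to 0.010 at 12 h, -0.11 to 0.022 at 48 h and -0.061 to 0.075 between these times. The KO against WT call of SERINC2 at 0 h was lost in 8 alternatives, with adjusted p from 0.0526 to 0.159, and at 12 h in 4, all with a library left out (0.0594 to 0.125). Of the 3 genes most like a member by Pearson's r, 1 or 2 were also among the 3 by Spearman's rho. The cause of these differences was not tested, and an unknown total depth limits how low values can be read.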
